A study of Mus musculus with 2 samples.

Results

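The 9 genes described here encode enzymes, inhibitors, receptors and ligands that remodel the matrix around cells: the metalloproteinases Mmp12, Mmp14 and Mmp19, the urokinase gene Plau, the urokinase receptor gene Plaur, the inhibitor gene Timp2, and the matrix ligand genes Spp1 (osteopontin), Fn1 (fibronectin) and Thbs1 (thrombospondin 1). They were taken by symbol from the 31053 genes of the count tables, and each of the 9 symbols stood on 1 row. In the cells kept for analysis Plau had the fewest UMIs (unique molecular identifiers, each marking 1 captured RNA molecule), 97 in the library of mice exposed to diesel exhaust particles (DEP) and 70 in the unexposed control library, and Thbs1 the most, 38159 and 39686.

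Matrix metalloproteinases cleave matrix and cell-surface proteins: Mmp12, the macrophage elastase, degrades elastin, Mmp14 is anchored in the cell membrane and activates other metalloproteinases, and TIMP proteins bind and block them. Urokinase, the product of Plau, turns plasminogen into plasmin at the cell surface, where Plaur holds it. Osteopontin, fibronectin and thrombospondin 1 are secreted proteins read by integrins and by receptors such as CD44, CD47 and CD36, and in the lung macrophages and monocytes are known sources of them.

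RefSeq's promoter table held starts for 5 of the 9 genes (Mmp12, Mmp14, Plaur, Spp1 and Timp2), with 7 windows in all on build GRCm38.p6, the mm10 genome. The 250 bases before a start are shown for Mmp12, found in few cells at unequal levels in the libraries, for Plaur, found in many cells at nearly equal levels, and for Spp1, read chiefly in alveolar macrophages, as a window without the motif searched. All 3 windows are on the plus strand, and capitals mark matches to TGANTCA, the binding motif of AP-1, searched on both strands. The Mmp12 window is chr9:7347124-7347373 and lies before the second of its annotated starts, within the gene's interval, in an intron of its longer transcript, the Plaur window is chr7:24462233-24462482, and the Spp1 window is chr5:104434861-104435110.
Mmp12: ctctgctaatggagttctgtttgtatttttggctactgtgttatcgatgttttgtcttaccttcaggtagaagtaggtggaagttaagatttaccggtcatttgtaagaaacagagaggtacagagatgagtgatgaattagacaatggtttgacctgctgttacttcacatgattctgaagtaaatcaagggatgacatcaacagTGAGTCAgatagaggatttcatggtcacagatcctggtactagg
Plaur: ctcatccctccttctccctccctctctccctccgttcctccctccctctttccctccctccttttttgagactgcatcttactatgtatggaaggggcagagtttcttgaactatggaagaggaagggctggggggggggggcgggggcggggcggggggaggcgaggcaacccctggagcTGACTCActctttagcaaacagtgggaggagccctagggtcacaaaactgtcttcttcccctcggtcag
Spp1: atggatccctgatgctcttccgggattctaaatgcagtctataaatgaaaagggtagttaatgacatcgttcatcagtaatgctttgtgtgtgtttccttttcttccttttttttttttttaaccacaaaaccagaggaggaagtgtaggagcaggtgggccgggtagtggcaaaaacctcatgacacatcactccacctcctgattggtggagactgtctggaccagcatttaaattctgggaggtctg
The Mmp12 window held 1 match, which began 44 bases before the start, and the Plaur window 1 match, which began 69 bases before it. The other 5 windows held none, among them the window before the first annotated start of Mmp12, chr9:7344147-7344396, which is not shown. Of 32841 windows of the same length over all genes of the table, 6.75% held the motif. A match is a run of letters in the window and was not measured as a bound site.

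Lungs were digested with collagenase, white blood cells were sorted by their surface protein CD45, and 1 library was made from DEP mice and 1 from control mice with the 10x Genomics 3′ kit. The DEP mice breathed 500 µg/m³ in a whole-body inhalation system for 1 h per day, 5 days per week, over 2 weeks, and the control mice were not exposed. The sample labels give Ccr2-/- for both libraries, with CD45.3+ for DEP and CD45.1+ for control, while the series text names both C57BL/6J wild-type and Ccr2-/- mice. By these labels the CD45 type differs with exposure, so their parts in the differences below cannot be told apart. Age and the number of animals pooled in a library are not given. Ccr2 RNA was found in 97.9% of 582 DEP and 91.7% of 372 control classical monocytes, at 781 and 577 CPM (UMIs per 1000000 UMIs of the class); a 3′ tag can lie outside a deleted part, so this does not check the labels. With 1 library per condition no difference below has a replicate check, and none was tested.

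The DEP library held 10000 barcodes with 67030914 UMIs and the control library 10312 barcodes with 62047730 UMIs, of which 8690 DEP and 8940 control cells passed the filters, at a median depth of 4152 and 3675 UMIs. Ptprc, the gene of CD45, had a UMI in 95.8% of DEP and 95.6% of control cells. The libraries shared 23 barcodes, 19 of them among kept cells. Cells were grouped into 29 clusters without the 9 genes, and 11 classes named from marker genes had at least 50 cells in each library; each name means that the cluster resembles that type by its markers. Levels are given in CPM with intervals that cover counting error only and neither cells nor animals. In these sums a class with fewer expressing cells and one with less RNA per cell cannot be told apart, so shares of cells with a UMI are given too.

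The 9 genes were read in different white cells. Mmp12 lay in interstitial macrophages and type 2 dendritic cells, Mmp19 and Spp1 chiefly in alveolar macrophages, and Fn1 in classical monocytes and macrophages. Neutrophils held 36.3% of Timp2 UMIs in the DEP library and 30.5% in the control library. Interstitial macrophages held 18.5% and 27.7% of them. Thbs1 lay in neutrophils and monocytes. Plaur lay in these and in alveolar macrophages, which held 18.4% of its DEP and 24.7% of its control UMIs. Type 2 dendritic cells held 69.9% of the DEP library's 582 Mmp12 UMIs and 46.0% of the control library's 923, and interstitial macrophages 22.2% and 45.1%. For Thbs1, neutrophils held 53.9% of UMIs in the DEP library and 70.9% in the control library, and classical monocytes 40.3% and 19.0%. Such shares also depend on the number and depth of a class's cells. Classical monocytes numbered 582 in the DEP and 372 in the control library, with Thbs1 at 2103 and 2280 CPM.

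**Figure D1:**
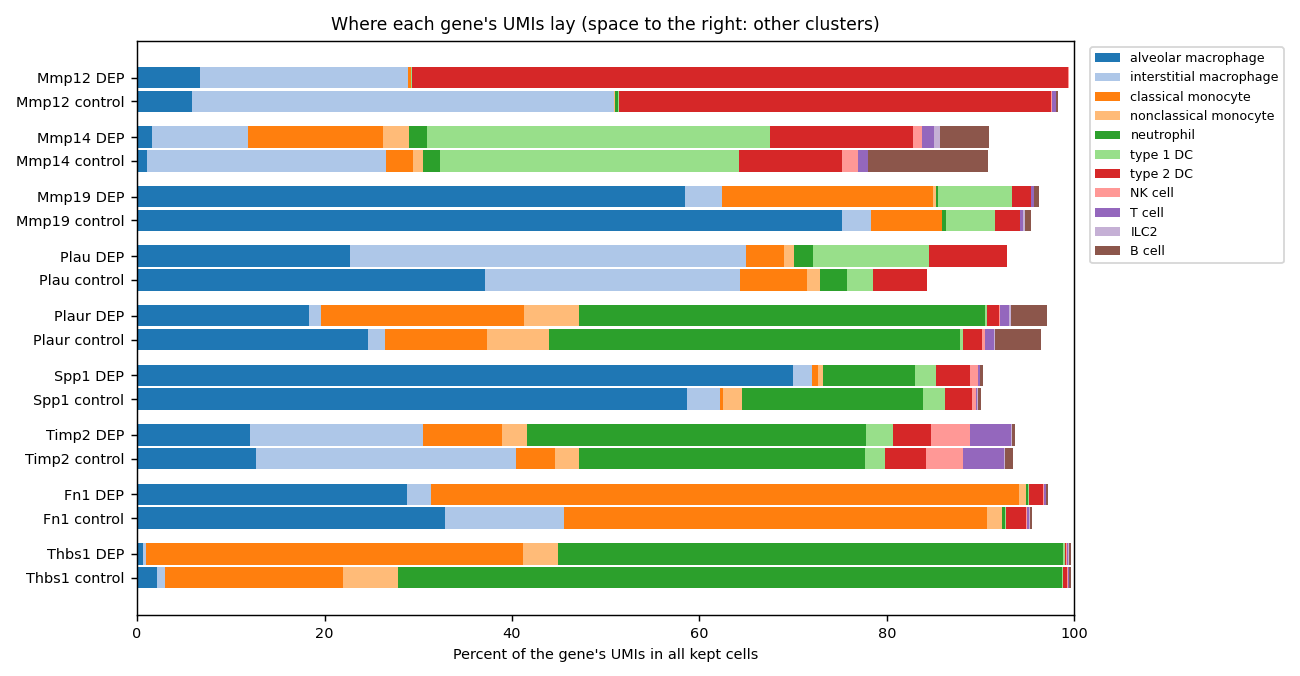
Share of each gene's UMIs (horizontal axis, percent of the UMIs in all kept cells of a library) held by 11 cell classes (colours), with the DEP bar above the control bar for each of the 9 genes. Mmp12 is split between interstitial macrophages and type 2 dendritic cells, while neutrophils and classical monocytes hold most Thbs1.

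A difference between the libraries was counted as beyond 1.5-fold when both libraries together gave 20 or more UMIs and the nearer bound of its exact 95% interval lay beyond 1.5-fold. In interstitial macrophages, where each of the 9 reached that count, 3 were lower in the DEP library (Mmp12, Fn1 and Thbs1), against 1.5% lower among all genes counted there, and 1 was higher (Plau), against 0.488% higher. In nonclassical monocytes 3 of 5 were lower (Spp1, Fn1 and Thbs1), against 0.209% of all genes. As set out below, most Spp1 and Thbs1 UMIs of that class lay in a sub-cluster with neutrophil markers. The Fn1 ratio there changed sign when doublets were kept. In alveolar macrophages 1 of 8 was lower (Thbs1), against 1.57%, and in neutrophils 1 of 5 (Spp1), against 1.14%.

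Among the other classes, 1 of 8 genes was lower in type 2 dendritic cells (Thbs1), against 3.13% of all genes, 1 of 7 was higher in type 1 dendritic cells (Thbs1), against 0.413%, and 1 of 2 was higher in group 2 innate lymphoid cells (Thbs1), against 0.617%. None of 7 passed in classical monocytes, where 2.66% of all genes passed in either direction. None passed in NK cells (5 counted, 0.289% of all genes), T cells (4 counted, 0.492%) or B cells (6 counted, 0.48%). The median log2 ratio of the counted members was -0.38 in interstitial macrophages, -0.78 in nonclassical monocytes, -0.25 in alveolar macrophages, -0.47 in neutrophils and -0.02 in classical monocytes. Over all genes counted in the same classes it was -0.01, -0.05, -0.05, -0.10 and -0.04.

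**Figure D2:**
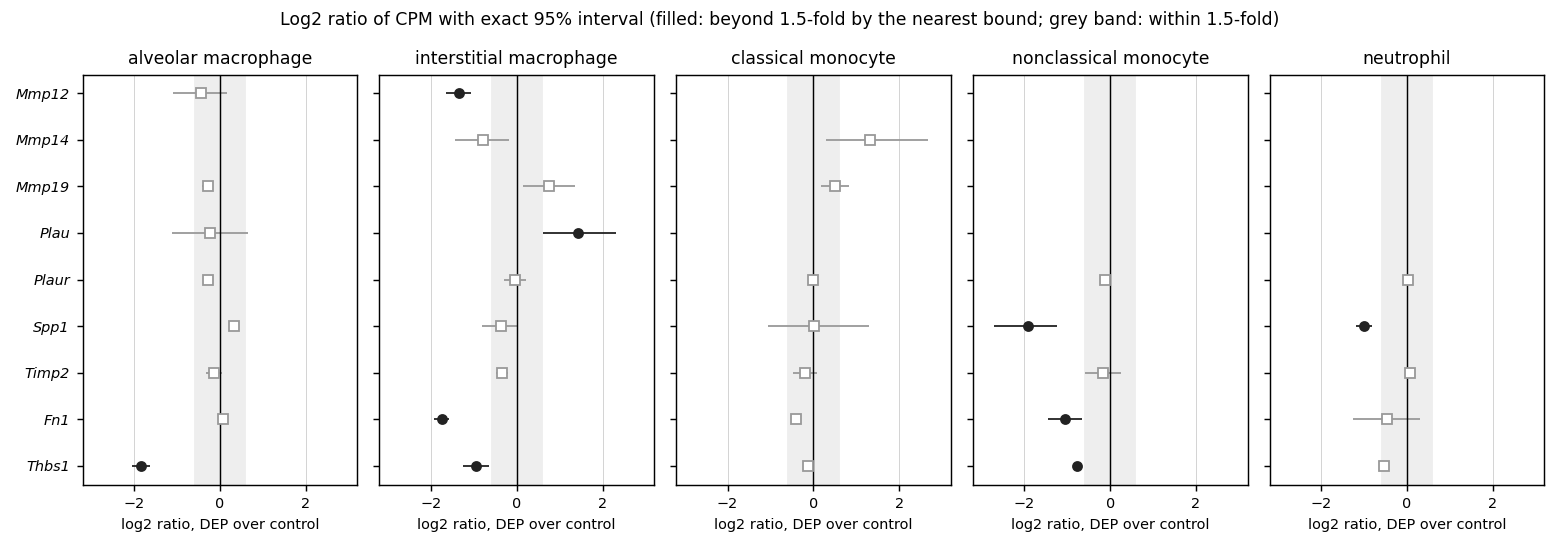
Log2 ratio of CPM, DEP over control (horizontal axis), with exact 95% intervals, for the genes with 20 or more UMIs over both libraries in 5 cell classes (panels). Filled points passed 1.5-fold by the nearer bound and the grey band marks ratios within 1.5-fold; most filled points lie left of 0, and Plau in interstitial macrophages lies right of it.

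Mmp12 was present in few cells, some of which had high counts. In interstitial macrophages it stood at 83.7 CPM (95% Poisson interval 69.9 to 99.5) in the DEP library, against 214.5 CPM (194.4 to 236.1) in the control library, 2.56-fold lower with a log2 ratio of -1.35 (-1.65 to -1.07). It was found in 10 of 123 DEP cells (8.13%) and in 24 of 144 control cells (16.7%), and the exact 95% intervals of these shares, 3.97% to 14.4% and 11% to 23.8%, overlap. Of the DEP cells, 6 had at least 10 Mmp12 UMIs and together held 92.2% of the 129 UMIs, while in the control library 13 such cells held 88.9% of 416. The highest cell had 37 UMIs in the DEP library and 67 in the control library, so that a small number of cells carried the level in each. With a stricter cell filter the log2 ratio was -0.80, and with doublets kept -0.67, neither beyond 1.5-fold.

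Type 2 dendritic cells gave no such difference, with Mmp12 at 143.0 CPM in the DEP library and 141.4 CPM in the control library and a log2 ratio of 0.02 (-0.18 to 0.22). The share of cells with a UMI was 13.5% of 192 DEP cells and 16.2% of 204 control cells. Nearly all of it lay in the cluster led by Ccl17, Il12b and Flrt3, with 250.6 CPM in 92 DEP cells and 231.8 CPM in 93 control cells, against 0.816 and 23.0 CPM in the other cluster. That other cluster was led by the lung epithelial gene Sftpc and the smooth muscle gene Acta2, and epithelial markers summed to 76.6 CPM in the DEP and 2336 CPM in the control library over the whole class; their part in the values of this class was not tested. All 12 DEP and 10 control dendritic cells with at least 10 Mmp12 UMIs had UMIs of Mgl2, a marker of these cells.

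Alveolar macrophages, which are known to induce Mmp12 in inflamed lungs, had 4.54 CPM in the DEP library and 6.22 CPM in the control library. The log2 ratio was -0.45 (-1.09 to 0.17), and 1 control cell held 33 of the class's 54 UMIs. The 8 remaining classes were below 1 CPM in both libraries. Among them B cells were used as a rough guide to free RNA, which was not itself measured. They had 0 Mmp12 UMIs in 1810 DEP cells and 2 in 2001 control cells, at medians of 3652 and 3300 UMIs per cell. The order of the first pair of classes cannot be given, since interstitial macrophages were above type 2 dendritic cells in the control library and below them in the DEP library.

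Within interstitial macrophages the genes followed sub-clusters. The sub-cluster led by Lyve1, Fcna and Cd163 (43 DEP and 63 control cells) had no Mmp12 UMI in the DEP library and none in the control library, and had the highest Timp2 level, 653 CPM in the DEP and 721 CPM in the control library. Another sub-cluster (42 and 44 cells) was led by Mucl1 and then by heart muscle genes such as Actc1, Myl7 and Tnnt2. Areg and H2-M2 stood after these among its leading genes. It had 321 CPM of Mmp12 in its DEP cells and 560 CPM in its control cells. The part of heart muscle RNA in its values was not tested. A further sub-cluster of 17 DEP and 9 control cells held the summed alveolar macrophage markers at 18518 and 15154 CPM, against 6729 and 3226 CPM over the whole class, with a median of 28696 UMIs per cell. Its Mmp12 level was 28.9 CPM in DEP and 297 CPM in control cells, and its part in the difference was not tested.

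Mmp14 was highest in type 1 dendritic cells, the cells that present antigen to CD8 T cells, with 44.6 CPM (36.9 to 53.4) in the DEP library and 34.1 CPM (27.4 to 41.9) in the control library. It had a UMI in 38.7% of 163 DEP cells and 33.7% of 169 control cells there. Interstitial macrophages followed with 21.4 CPM in the DEP and 37.1 CPM in the control library, a log2 ratio of -0.78 (-1.43 to -0.18), and type 2 dendritic cells with 17.2 and 10.3 CPM. The first pair of these classes was not in the same order in both libraries, since interstitial macrophages lay above type 1 dendritic cells in the control library, within overlapping intervals, and below them in the DEP library. Classical monocytes had 6.30 CPM in the DEP library and 2.42 CPM in the control library from 46 and 8 UMIs, with a log2 ratio of 1.31 (0.28 to 2.68) that was 0.14 without the sub-clusters held almost wholly by the DEP library. In alveolar macrophages Mmp14 was at 0.582 and 0.345 CPM. B cells, at 2.29 and 4.83 CPM, lay near the monocytes. T cells, at 0.635 and 0.549 CPM, and neutrophils, at 0.744 and 0.658 CPM, were lower, so the B cell level was not shared by all classes. The part of free RNA in the B cell and monocyte levels was not tested.

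Mmp19, which cleaves basement membrane proteins, was an alveolar macrophage transcript. Alveolar macrophages had 96.3 CPM (89.8 to 103.1) in the DEP library and 117.6 CPM (110.5 to 125.0) in the control library, with UMIs in 54.9% of 559 and 68.9% of 469 cells. The log2 ratio was -0.29 (-0.42 to -0.15), within 1.5-fold. After thinning each cell to 1000 UMIs the shares were 9.07% and 9.80%. Every other class was lower in both libraries. Classical monocytes came next with 43.5 CPM in the DEP and 30.8 CPM in the control library, type 1 dendritic cells had 42.3 and 26.9 CPM and interstitial macrophages 36.3 and 21.7 CPM, and these neighbours were not separated in both libraries.

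In those 3 classes the level was higher in the DEP library at log2 ratios of 0.49, 0.65 and 0.74, each with a lower bound short of 1.5-fold; in classical monocytes it was -0.13 without the sub-clusters held almost wholly by the DEP library. In neutrophils Mmp19 had 3 UMIs in the DEP and 5 in the control library.

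**Figure D3:**
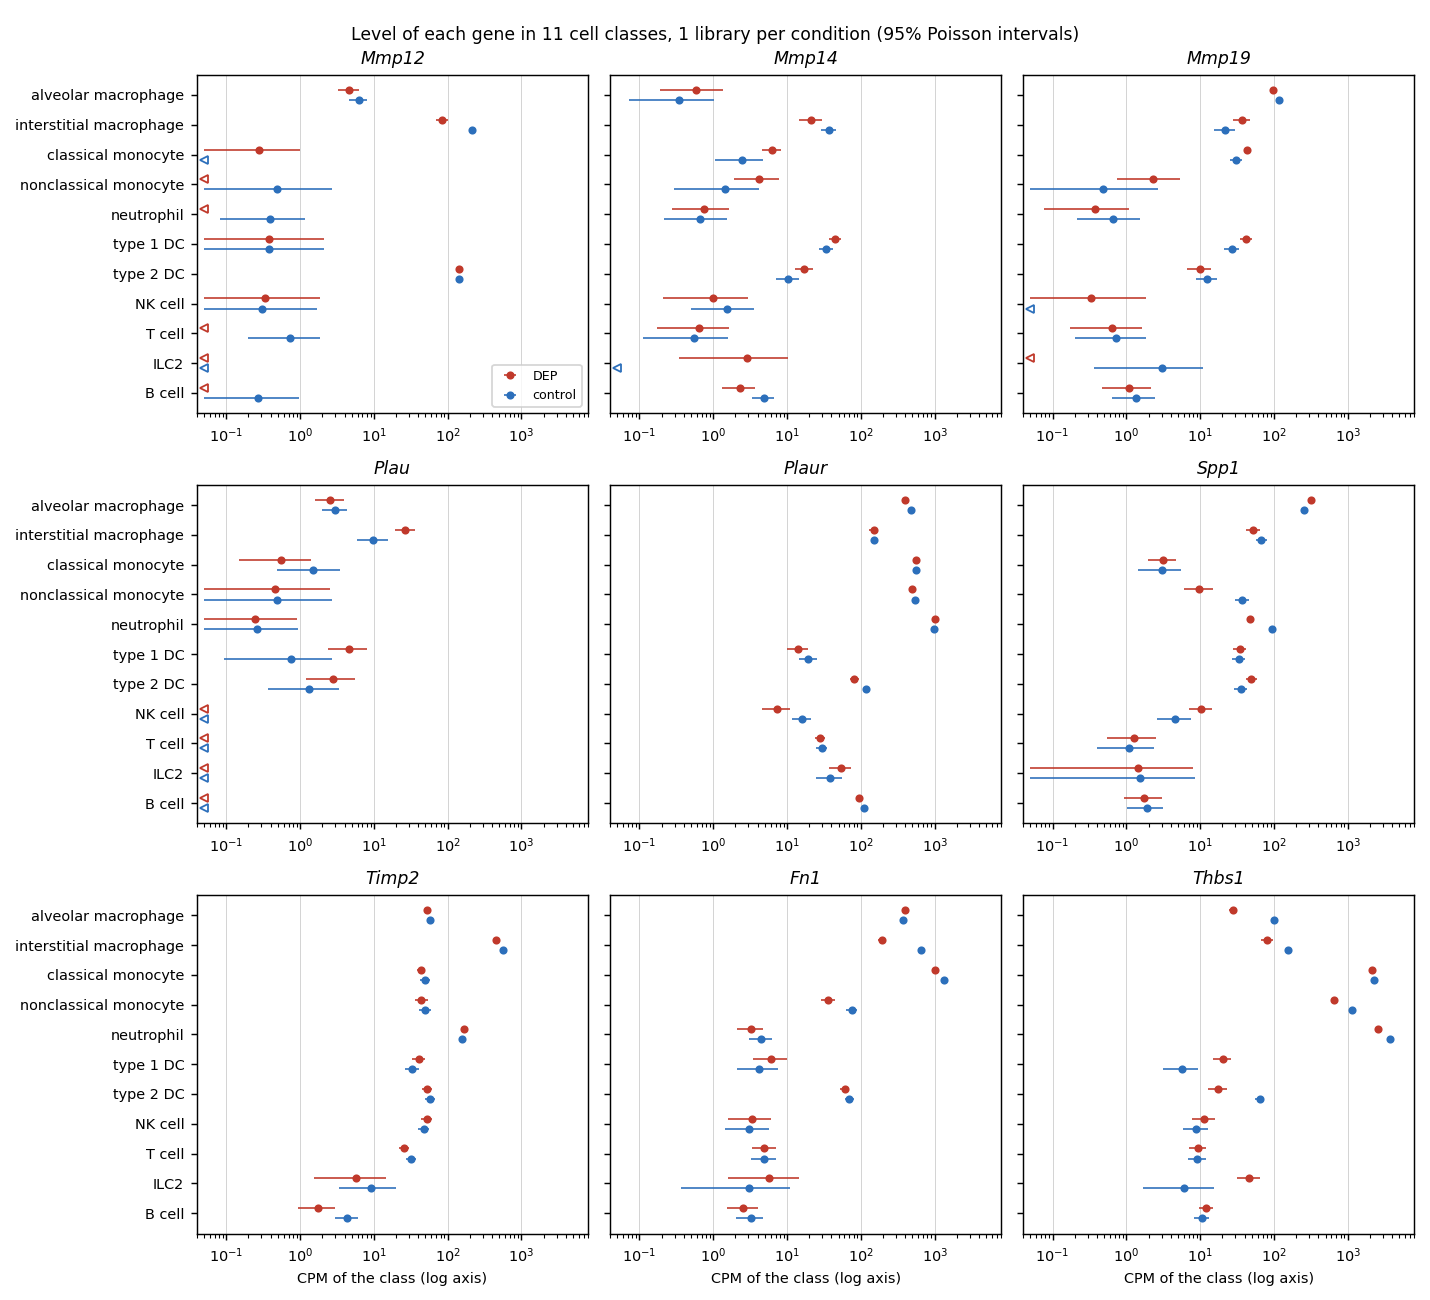
CPM of each of the 9 genes (panels, logarithmic horizontal axis) in 11 cell classes, DEP in red above control in blue, with 95% Poisson intervals; open triangles at the left edge mark classes with no UMI. The libraries lie close together for Plaur in every monocyte, macrophage and neutrophil class, while Mmp12, Fn1 and Thbs1 lie apart in interstitial macrophages.

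Plau, the urokinase gene, had the fewest UMIs of the 9. Interstitial macrophages held it at 26.6 CPM (19.1 to 36.1) in the DEP library, against 9.80 CPM (5.90 to 15.3) in the control library, from 41 and 19 UMIs. The log2 ratio was 1.42 (0.62 to 2.31). It was found in 16 of 123 DEP cells and 14 of 144 control cells, so the share of cells was 13% and 9.72% with overlapping intervals, and 1 DEP cell held 14 of the 41 UMIs. The ratio was 0.91 without the highest 1% of cells, 0.92 with a per-cell marker gate and 0.94 with each cell weighing the same, and in each of these it no longer passed 1.5-fold. The Mucl1 sub-cluster, rich in Mmp12 and led largely by heart muscle genes, held 28 of the 41 DEP UMIs and 9 of the 19 control UMIs. Alveolar macrophages were at 2.56 CPM in the DEP and 2.99 CPM in the control library, type 1 dendritic cells at 4.57 and 0.757 CPM, and no UMI was seen in NK, T, B or group 2 innate lymphoid cells of either library. In 1810 DEP and 2001 control B cells the count of 0 allows up to 0.404 and 0.402 CPM, the level of 3 UMIs in each sum.

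Plaur, which anchors urokinase on the cell, was carried by cells of the myeloid line at nearly equal levels in both libraries. Neutrophils had 1002 CPM in the DEP library and 981 CPM in the control library, a log2 ratio of 0.03 (-0.02 to 0.08), with UMIs in 78.3% of 2628 and 73.0% of 2761 cells. Classical monocytes were at 552 CPM in the DEP and 559 CPM in the control library, with UMIs in 96.2% of 582 and 93.5% of 372 cells. Nonclassical monocytes had 498 and 544 CPM, alveolar macrophages 397 and 483 CPM and interstitial macrophages 149 and 153 CPM. This order held in both libraries, with intervals that did not overlap except between classical and nonclassical monocytes in the control library.

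Lymphocytes showed a lower Plaur level that was still above 0, with 94.9 CPM in DEP and 111.3 CPM in control B cells, where 26.6% and 28.4% of cells had a UMI. NK cells had the lowest, 7.33 CPM in the DEP and 15.9 CPM in the control library, so the B cell level was not one shared by all lymphocytes. No class passed 1.5-fold for Plaur.

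Timp2, an inhibitor of metalloproteinases that also takes part in the activation of pro-MMP2 by MMP14, was highest in interstitial macrophages. It stood at 445 CPM (412 to 480) in the DEP library and 565 CPM (532 to 600) in the control library, a log2 ratio of -0.34 (-0.48 to -0.21). UMIs were seen in 94.3% of 123 DEP and 94.4% of 144 control cells, and 1 control cell held 9.31% of the UMIs. Neutrophils came next with 167 CPM in the DEP and 159 CPM in the control library, above every later class in both libraries. From alveolar macrophages, with 52.1 and 57.7 CPM, down to type 1 dendritic cells, with 40.4 and 32.9 CPM, 6 classes lay together and were not separated from their neighbours. B cells were at 1.75 CPM in the DEP library and 4.29 CPM in the control library. In both libraries Timp2 was thus read in nearly all interstitial macrophages, while Mmp12, Plau and Fn1 were read in a minority of them.

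Spp1, the osteopontin gene, was chiefly an alveolar macrophage transcript, at 317 CPM (305 to 329) in the DEP library and 251.5 CPM (241.0 to 262.2) in the control library. The log2 ratio was 0.33 (0.25 to 0.42), within 1.5-fold, while the share of cells with a UMI was 64.4% of 559 DEP cells and 72.5% of 469 control cells. The level and the share thus ran in opposite directions, and after thinning the shares were 17.6% and 19.0%. A sub-cluster of 60 DEP and 23 control cells, led by the antibody genes Jchain and Igha, had 573 CPM in its DEP cells and 152 CPM in its control cells. B cell markers summed there to 73.9 CPM in DEP and 16670 CPM in control cells, and their part in the difference was not tested.

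In neutrophils, Spp1 was 2.00-fold lower in the DEP library, at 47.4 CPM (42.75 to 52.39), while the control library had 94.6 CPM (87.8 to 101.8). The log2 ratio was -1.0 (-1.18 to -0.82). It was found in 130 of 2628 DEP cells (4.95%) and 201 of 2761 control cells (7.28%), and after thinning in 2.04% and 4.30%. In B cells, the rough guide to free RNA, 0.608% of DEP and 0.700% of control cells had an Spp1 UMI. Their median depths were 3652 and 3300 UMIs, against 2896 and 2677 in neutrophils. The DEP level was lower in each of the 3 larger neutrophil clusters, with 28.4 against 68.0 CPM in the cluster led by Icam1 and Cxcl1, 71.2 against 134.8 CPM in the cluster led by Nt5e, and 25.7 against 130.1 CPM in the cluster led by interferon-induced genes such as Ifit3. The smallest cluster, led by the granule genes Camp and Ngp, had 16 UMIs in 23 DEP cells and 1 UMI in 9 control cells.

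Nonclassical monocytes had Spp1 at 9.66 CPM in the DEP library and 37.1 CPM in the control library, a log2 ratio of -1.92 (-2.71 to -1.23), from 21 and 77 UMIs. All 21 DEP and 76 of the 77 control UMIs lay in 1 sub-cluster of 104 DEP and 119 control cells, in which neutrophil markers such as S100a8 and Retnlg summed to 69311 and 67363 CPM. Outside it the class had no Spp1 UMI in the DEP library and 1 in the control library. Interstitial macrophages had 51.9 CPM in the DEP and 67.5 CPM in the control library, where 1 control cell held 66 of 131 UMIs, and type 2 dendritic cells 49.5 and 35.3 CPM. After alveolar macrophages, the classes from neutrophils to type 1 dendritic cells were not separated from their neighbours in both libraries.

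Fn1, which encodes the adhesive matrix protein fibronectin, was highest in classical monocytes, at 1012 CPM in the DEP library and 1347 CPM in the control library. The log2 ratio was -0.41 (-0.47 to -0.36), within 1.5-fold, and UMIs were found in 90.9% of 582 and 89.2% of 372 cells. Alveolar macrophages had 395 CPM in the DEP and 374 CPM in the control library, a log2 ratio of 0.08 (0.01 to 0.15). Neutrophils, at 3.22 and 4.47 CPM, were near the B cell level of 2.56 and 3.22 CPM.

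Interstitial macrophages had Fn1 at 193 CPM (171 to 216) in the DEP library, against 648 CPM (612 to 684) in the control library, 3.36-fold lower with a log2 ratio of -1.75 (-1.94 to -1.56). The share of cells with a UMI was 13.8% of 123 in the DEP library and 17.4% of 144 in the control library, with overlapping intervals of 8.26% to 21.2% and 11.6% to 24.6%. Cells with at least 50 Fn1 UMIs numbered 2 in the DEP library (1.63%, 0.198% to 5.75%) and 7 in the control library (4.86%, 1.98% to 9.76%), and they held 60.6% of 297 and 82.2% of 1256 UMIs. The difference in the sum thus lay in 2 against 7 cells, whose shares overlap. Without the highest 1% of cells the log2 ratio was -2.31.

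The cells rich in Fn1 and those rich in Mmp12 overlapped in part. None of the 2 DEP cells with at least 50 Fn1 UMIs had an Mmp12 UMI, while 3 of the 7 such control cells did, holding 87 of the 416 Mmp12 UMIs with 67 in 1 cell. Of the cells with at least 10 Mmp12 UMIs, 1 of 6 in the DEP library held 31 of the 297 Fn1 UMIs, and 5 of 13 in the control library held 243 of the 1256. UMIs of both genes were found in 1 DEP cell and 7 control cells. The MHC class II gene H2-Aa, which antigen-presenting cells use, had 2 UMIs in the 2 DEP cells and 5 UMIs in the 7 control cells rich in Fn1, but 1061 and 2614 UMIs in the 6 DEP and 13 control cells with at least 10 Mmp12 UMIs. Serpinb2, an inhibitor of urokinase, had 5 of its 7 DEP UMIs in 1 of the 2 DEP cells rich in Fn1. In the control library 3 of the 7 such cells held 209 of its 210 UMIs, with 140 in 1 cell. No cell rich in Mmp12 had a Serpinb2 UMI in either library. Of the Thbs1 UMIs, 31 of 125 in the DEP and 261 of 303 in the control library lay in the cells rich in Fn1. By sub-cluster, the one with alveolar macrophage markers held 212 of the 297 DEP and 98 of the 1256 control Fn1 UMIs, and the Mucl1 sub-cluster 75 and 965. Its level was 211 CPM in DEP and 1813 CPM in control cells; the part of either sub-cluster in the difference was not tested. H2-Aa, Serpinb2 and C1qa were looked at in these cells after the values of the 9 genes had been seen.

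Nonclassical monocytes had Fn1 at 36.3 CPM in the DEP library and 75.2 CPM in the control library, a log2 ratio of -1.04 (-1.46 to -0.65), while 8.36% of 275 and 8.06% of 310 cells had a UMI. The ratio was -0.25 without the highest 1% of cells and 0.73 when doublets were kept, so it rested on few cells and on that step. The sub-cluster led by C1qb and Fn1 had 102.5 CPM in its 54 DEP cells and 291 CPM in its 49 control cells. In type 2 dendritic cells Fn1 stood at 60.4 CPM in the DEP and 69.9 CPM in the control library.

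Thbs1, whose product activates latent TGF-beta and binds CD36 and CD47, was carried by neutrophils and monocytes. Neutrophils had 2550 CPM (2515 to 2585) in the DEP library and 3703 CPM (3660 to 3746) in the control library, 1.45-fold lower with a log2 ratio of -0.54 (-0.56 to -0.51). The bound nearest 0 lay within 1.5-fold, so the difference did not pass. UMIs were found in 72.3% of 2628 DEP and 84.0% of 2761 control cells, and after thinning in 61.4% and 75.6%. The median cell had 4 Thbs1 UMIs in the DEP library and 8 in the control library.

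Each of the 4 neutrophil clusters had a lower Thbs1 level in the DEP library, with 2134 against 3414 CPM in the Icam1 cluster, 3055 against 4240 CPM in the Nt5e cluster, 2203 against 3028 CPM in the Ifit3 cluster and 3047 against 4353 CPM in the Camp cluster. The folds, control over DEP, ran from 1.37 to 1.6. The median of all genes counted in neutrophils was -0.10 on the log2 scale, and with scaling by the median of gene ratios the Thbs1 ratio was -0.45.

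Classical monocytes had Thbs1 at 2103 CPM in the DEP library and 2280 CPM in the control library, a log2 ratio of -0.12 (-0.16 to -0.08), with a median of 20 and 14 UMIs per cell at median depths of 12283 and 8756 UMIs. In this class 4 sub-clusters lay almost wholly in the DEP library, together 361 DEP and 14 control cells. Leaving them out gave a log2 ratio of -0.52, and -0.17 for Fn1. Nonclassical monocytes had 655 CPM (621 to 690) in the DEP library and 1125 CPM (1080 to 1172) in the control library, 1.72-fold lower with a log2 ratio of -0.78 (-0.88 to -0.69). Of their Thbs1 UMIs, 1046 of 1424 in the DEP and 2005 of 2335 in the control library lay in the sub-cluster with neutrophil markers, and without it the log2 ratio was -0.05.

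Alveolar macrophages had Thbs1 at 27.7 CPM (24.3 to 31.5) in the DEP library and 99.0 CPM (92.5 to 105.9) in the control library, 3.57-fold lower with a log2 ratio of -1.83 (-2.05 to -1.63). A sub-cluster of 25 DEP and 50 control cells held 172 of the 238 DEP and 752 of the 860 control UMIs. It was led by Plac8, F13a1 and Ly6c2, genes of classical monocytes, whose marker list summed to 2313 CPM in its DEP and 2523 CPM in its control cells. All 12 of those markers were detected, and the median cell had 26920 UMIs. Without it the log2 ratio was -0.86 and no longer passed, with a stricter cell filter it was -0.16, and when doublets were kept it was 0.38. Interstitial macrophages had 81.1 CPM in the DEP and 156 CPM in the control library, a log2 ratio of -0.94 (-1.26 to -0.64), with 3 cells holding 72.0% of the DEP and 3 cells 85.5% of the control UMIs. That ratio was -0.43 without the highest 1% of cells, -0.67 with doublets kept, 0.15 with a per-cell marker gate and 1.81 without a cell filter.

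Dendritic and lymphoid cells gave Thbs1 values in both directions. Type 2 dendritic cells had 17.2 CPM in the DEP and 64.5 CPM in the control library, a log2 ratio of -1.90 (-2.39 to -1.45). Type 1 dendritic cells had 20.2 CPM in the DEP and 5.68 CPM in the control library, where 1 DEP cell held 22 of 53 UMIs, and group 2 innate lymphoid cells 46.0 and 6.09 CPM, where 1 DEP cell held 16 of 32. B cells stood at 12 CPM in the DEP and 10.46 CPM in the control library, with a UMI in 4.75% and 3.75% of cells. The level in type 1 dendritic cells of the control library was thus no higher than that of B cells. The part of free RNA in these levels was not tested. Epithelial markers were also higher in the control type 2 dendritic cells, and their part in the Thbs1 level was not tested. In the cluster led by Sftpc, 100 DEP cells held 39 Thbs1 UMIs and 111 control cells 139. In the cluster led by Ccl17, 92 DEP cells held 10 and 93 control cells 55.

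**Figure D4:**
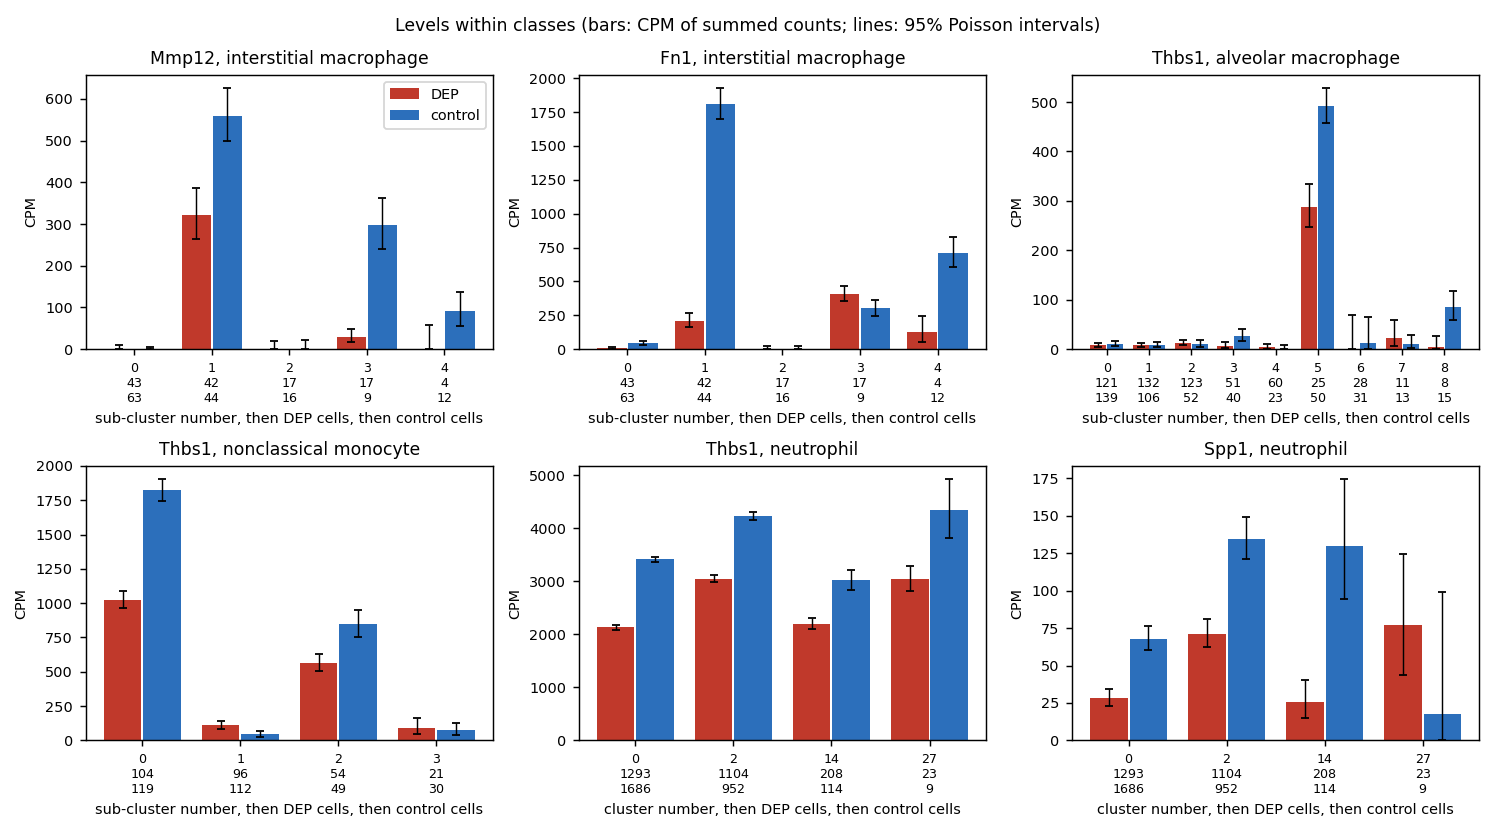
CPM (vertical axis) of Mmp12, Fn1, Thbs1 and Spp1 in the sub-clusters or clusters of 4 classes, DEP bars in red left of control bars in blue, with 95% Poisson intervals; below each pair stand its number, its DEP cells and its control cells. Sub-cluster 1 has the highest Mmp12 level of interstitial macrophages in both libraries and the highest Fn1 level in the control library, sub-cluster 5 carries Thbs1 of alveolar macrophages, and Thbs1 is lower in DEP cells in all 4 neutrophil clusters.

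Among other genes of the same systems, counted by the same 1.5-fold rule, the metalloproteinases Mmp9 and Mmp13 were the 2 of 16 with enough UMIs in interstitial macrophages, and both were lower there. Mmp9 stood at 81.1 CPM in the DEP and 183.5 CPM in the control library (log2 ratio -1.17, -1.48 to -0.88), and Mmp13, a collagenase, at 18.8 and 63.9 CPM (-1.75, -2.40 to -1.17). In classical monocytes Mmp8, a collagenase stored by neutrophils, was at 126 CPM in the DEP and 66.8 CPM in the control library (0.92, 0.71 to 1.14), 1 of 2 counted; 1.37% of all genes were higher and 1.29% lower there. The 14 neutrophil markers summed to 1751 and 1299 CPM in that class and to 1403 and 1653 CPM in interstitial macrophages, and their part in these values was not tested. In neutrophils, 3 were counted and none passed, with Mmp9, the gelatinase of their granules, at 1209 and 1309 CPM.

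Of 20 other genes of the plasminogen system, 13 were counted in interstitial macrophages, and 1 was lower there and none higher. This was Serpinb2, at 4.54 CPM in the DEP and 108 CPM in the control library (log2 ratio -4.48, -5.91 to -3.51). In the control library 3 of the Fn1-rich cells described above held 209 of its 210 UMIs, with 140 in 1 cell. In classical monocytes 12 were counted. Coagulation factor F10 was higher, at 252.5 CPM in the DEP and 127 CPM in the control library (0.99, 0.84 to 1.14), as was Plat, the tissue plasminogen activator gene, at 8.90 and 2.42 CPM, and Serpinb2 was lower, at 12.5 and 29.9 CPM. The plasminogen-binding pair Anxa2 and S100a10 was abundant in the same cells without a difference beyond 1.5-fold, Anxa2 at 928 and 847 CPM and S100a10 at 850 and 853 CPM.

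Receptors of osteopontin, fibronectin and thrombospondin were read broadly, and few passed. Of 18, 15 were counted in alveolar macrophages and 2 were lower, the integrin gene Itgam at 8.73 CPM in the DEP and 18.4 CPM in the control library and the syndecan gene Sdc4 at 3.49 and 8.75 CPM. In classical monocytes 17 were counted and 1 was lower, Sdc3 at 72.1 and 134 CPM. None of 16 passed in interstitial macrophages, none of 17 in nonclassical monocytes and none of 16 in neutrophils. Cd44, the osteopontin receptor gene, was at 1978 and 2199 CPM in alveolar macrophages, a log2 ratio of -0.15 (-0.18 to -0.12).

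Matrix proteases of other families and secreted matrix genes completed the comparison. Ctsk, the elastin- and collagen-cleaving cathepsin K gene, was higher in DEP interstitial macrophages, at 54.5 CPM against 16.0 CPM in the control library (log2 ratio 1.76, 1.16 to 2.41), the 1 of 10 counted proteases that passed. In classical monocytes 2 of 10 were higher, Ctsd at 293 and 151 CPM and Prtn3, the proteinase 3 gene, at 78.0 and 6.65 CPM. Among 10 secreted matrix genes counted in interstitial macrophages, Ecm1 was lower, at 89.6 CPM in the DEP and 196 CPM in the control library, as was Emilin2, at 37.6 and 88.7 CPM. In classical monocytes 9 were counted, of which Ecm1 was higher, at 45.9 and 19.95 CPM, and the basement membrane collagen gene Col4a1 lower, at 0.821 and 6.05 CPM from 6 and 20 UMIs. In neutrophils 1 of 6 was higher, Vim, which encodes the filament protein vimentin, at 323 and 118 CPM, as was 1 of 13 proteases and their inhibitors, Stfa3, at 15.4 and 4.47 CPM, where 0.563% of all genes were higher.

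Of 17 adamalysin genes, whose proteases shed cell-surface proteins, 9 were counted in interstitial macrophages and 1 was lower, Adam8, at 6.49 CPM in the DEP and 24.7 CPM in the control library. In alveolar macrophages 1 of 10 was lower, Adam19, at 0.349 and 2.07 CPM from 3 and 18 UMIs. In nonclassical monocytes 1 of 8 was higher, Adamdec1, at 7.82 and 1.45 CPM from 17 and 3 UMIs, where 0.246% of all genes were higher, and none passed in classical monocytes (7 counted) or neutrophils (8 counted). Of the 5 other metalloproteinase inhibitor genes, Timp1 was the 1 counted in classical monocytes, at 3.15 and 5.44 CPM, and none reached the count in the other macrophage, monocyte and neutrophil classes. In type 2 dendritic cells, where 0.329% of all genes were higher, 2 were counted: Timp1 was higher, at 18.6 CPM in the DEP and 7.32 CPM in the control library, and Timp3 lower, at 8.08 and 28.6 CPM. In that class fibroblast markers summed to 425 CPM in the DEP and 128 CPM in the control library and endothelial markers to 38.6 and 183 CPM. Col1a1, on the fibroblast marker list, went the other way, at 1.41 and 7.65 CPM from 4 and 23 UMIs. Of 17 secreted matrix genes counted there, 4 were lower (Col1a1, Col4a1, Postn and Gas6) and none higher, where 3.13% of all genes were lower. The part of the fibroblast and endothelial markers in the values of this class was not tested. The 4 sub-clusters held almost wholly by the DEP library lie within classical monocytes, and their part in the values of these genes was not tested.

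Genes with the pattern most like each member were named by Pearson correlation of log2(CPM + 1) over 22 points, the 11 classes in each of the 2 libraries, which share libraries and classes and so are a description. Mmp12 was closest to Fcrls (0.94), Cyr61 (0.91) and Mgl2 (0.91), Mmp14 to Zmynd15 (0.92), Mmp19 to Il18 (0.93) and Plaur to Rhbdf2 (0.97). Spp1 was closest to Cd9 (0.95), Timp2 to Nradd (0.86), Fn1 to Gab1 (0.95) and Fcgr1 (0.94), and Thbs1 to Hp (0.98) and Clec4e (0.97). Plau had too few UMIs for this measure, which was taken for members with at least 200.

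On build mm10 the genes lie on 8 chromosomes. Fn1 (ENSMUSG00000026193) spans chr1:71585520-71653200 on the minus strand, Thbs1 (ENSMUSG00000040152) chr2:118111876-118127133 on the plus strand, Spp1 (ENSMUSG00000029304) chr5:104435118-104441050 on the plus strand and Plaur (ENSMUSG00000046223) chr7:24462484-24475968 on the plus strand. Mmp12 (ENSMUSG00000049723) spans chr9:7344381-7369499 and Mmp19 (ENSMUSG00000025355) chr10:128790910-128800824, both on the plus strand, and Timp2 (ENSMUSG00000017466) chr11:118301069-118355740 on the minus strand. Plau (ENSMUSG00000021822) spans chr14:20836660-20843385 and Mmp14 (ENSMUSG00000000957) chr14:54431612-54445364, both on the plus strand. All 9 are annotated as protein-coding, and counts are of whole genes, so exons and isoforms are not told apart.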

How the data were processed

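Single-cell RNA was read from CD45+ lung cells with the 10x Genomics 3′ kit v3.1, per the labels' protocols. The deposited tables hold raw UMI counts per gene and barcode that the authors made with Cell Ranger on mm10, version 3.1.3 per the submitters' processing notes and 3.1.0 per the file headers; the annotation used is not given in the sources used here. Positions come from GENCODE's annotation of that build, and the promoter sequences from RefSeq (GRCm38.p6).

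Barcodes with at least 500 UMIs, 200 genes and at most 10% mitochondrial UMIs were kept. Doublets were scored against simulated ones and the expected number removed (0.8% per 1000 cells), 706 in the DEP and 751 in the control library. Clusters came from 2000 variable genes (leaving out the 9 genes, the related gene lists and genes of mitochondria, ribosomes, haemoglobin, the sex chromosomes' marker genes and antigen receptor segments), 30 principal components, 20 neighbours and the Leiden method at resolution 1. A cluster took a class name when at least 3 of the class's markers were among its 50 leading genes and no other class had more among the first 10; 2 clusters stayed unnamed. UMIs were summed per class and library into CPM with exact Poisson intervals. Log2 ratios are DEP over control with 0.5 counts added and exact conditional binomial 95% intervals, folds are taken without that addition, and shares carry Clopper-Pearson intervals. The ratio and its call were tested on simulated data. The depth of the class sums runs from 656432 UMIs in group 2 innate lymphoid cells to 8684915 UMIs in alveolar macrophages, both of the control library.

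Both the 9 genes and the lists were chosen with earlier results of these data known. All 9 are reported; other genes were named as the 2 of highest count and the 2 farthest beyond 1.5-fold in each list, or the 3 of most alike pattern, and not every one is printed. Plat and the list genes of neutrophils, nonclassical monocytes and type 2 dendritic cells were named after their values were seen. Tools were Python 3.11.15, numpy 2.4.6, scipy 1.17.1, scikit-learn 1.9.0, leidenalg 0.10.2 and igraph 0.11.9.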

Additional observations from a re-analysis of the deposited data

Results flagged for a closer look

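Thbs1 moved in opposite directions between classes, which is why it is listed here; the difference between the classes was not tested, and each value rests on 1 library per condition. Its log2 ratio, DEP over control, was 1.80 in type 1 dendritic cells and 2.77 in group 2 innate lymphoid cells, where a single DEP cell held 41.5% and 50% of the DEP UMIs. It was -1.83 in alveolar macrophages, -0.94 in interstitial macrophages, -0.78 in nonclassical monocytes and -1.90 in type 2 dendritic cells. The alveolar macrophage value changed sign with doublets kept. That of interstitial macrophages changed sign with a per-cell marker gate and without a cell filter. In nonclassical monocytes it no longer passed 1.5-fold without the sub-cluster with neutrophil markers.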

How the results depend on the processing

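There were 13 alternatives chosen in advance and 1, leaving out sub-clusters over 1.5 times their class in neutrophil markers, added after seeing the data. Of 403 log2 ratios of single genes recomputed in 5 classes, 338 kept direction, side of 1.5-fold and size, 35 moved, 18 no longer passed 1.5-fold and 8 newly passed. A sign change was seen in 16 of the 296 for ratios within 1.5-fold as reported (such as Mmp19 in classical monocytes) and in 4 of the 107 for ratios beyond it. Those 4 were Thbs1 in alveolar macrophages with doublets kept (0.38), Thbs1 in interstitial macrophages without a cell filter (1.81) and with a per-cell marker gate (0.15), and Fn1 in nonclassical monocytes with doublets kept (0.73). The count of members beyond 1.5-fold became 2 with the gate and 0 without the neutrophil-marker sub-clusters in alveolar macrophages. In interstitial macrophages it ran from 2, without the highest 1% of cells, to 4, and was 3 with the gate, the stricter filter, doublets kept, each cell weighing the same or a minimum of 100 UMIs. It became 1 in nonclassical monocytes without the neutrophil-marker sub-clusters. In that class Fn1 also no longer passed without the highest 1% of cells. Spp1, with 21 DEP and 77 control UMIs there, fell short of a minimum of 100 UMIs. In classical monocytes it became 1 with the gate, with each cell weighing the same, without the highest 1% of cells and with the B cell level subtracted. Mmp12 in interstitial macrophages was -0.80 with the stricter filter and -0.67 with doublets kept, neither beyond 1.5-fold; the causes were not tested. Leiden resolutions of 0.6 and 1.6 changed no call. Leaving out sub-clusters held over 80% by 1 library applied to classical monocytes alone. No paired analysis was possible because each condition has 1 library and the labels carry no replicate number. With 41 and 19 UMIs for Plau, and Mmp12 and Fn1 in few cells, depth and cell numbers limit these values, and counting intervals understate their error.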
